A study of Homo sapiens with 4 samples.

Results

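Cytosolic ribosomal proteins are the protein building blocks of the 40S and 60S subunits of the ribosome, and the genes that encode them were followed here in human oral cancer cells with and without knockdown of STAU1, a double-stranded RNA-binding protein. The members were chosen by name: protein-coding genes called RPL or RPS with a number and an optional letter or L suffix, together with RPLP0, RPLP1, RPLP2 and RPSA, leaving out pseudogenes, the RPS6K kinases, readthrough genes and the Y-linked copies of RPS4. This gave 85 genes of the 67008 in the table, 53 of the large and 32 of the small subunit. The study sequenced RNA from SAS, a line from a human squamous carcinoma of the tongue, after viral infection with 1 of 2 short hairpin RNAs. The control group (Ctrl) carried shLuc, a hairpin against firefly luciferase, and the other group (shSTAU1) carried a hairpin against STAU1, with 2 libraries in each. Both groups thus shared the line, the infection and the expression of a hairpin, both had the genotype given as WT, and the knockdown rested on 1 hairpin. No source states that the libraries of a group came from separate cultures, so p-values measure the spread between these 4 samples, which may be technical.

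Each mature ribosome carries nearly all of these proteins in single copy, and cells make them in matched amounts. The mRNAs for them are short and abundant, and most begin at a C followed by a run of pyrimidines, the 5′ terminal oligopyrimidine (TOP) motif, through which the mTOR pathway and the cap-binding protein LARP1 set their translation and stability together. A few members have a close relative (a paralog) that encodes a similar protein and in many tissues is made at a lower level. Ribosomal protein genes have also left very many processed pseudogenes in the human genome, so that short reads from these genes can match several places.

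The start sites show what most members have in common in sequence. A RefSeq entry on GRCh38.p14 was found for 68 of the 85 members. At 47 of these 68 genes (69.1%) at least 1 annotated start was a C that opened a run of at least 5 pyrimidines, read on the strand of the gene, against 941 of 15774 other protein-coding genes (5.97%). Of the 6 paralogs with an entry, RPL22L1 was the 1 with such a start. The following windows hold 10 bases before and 20 bases from the start, 5′ to 3′, with the pyrimidine run from the start in capitals where it met this definition. They are shown for 3 of the called members, for the members below 0, and for some paralogs beside their canonical genes.
RPL24 (chr3:101686699-101686728, minus strand): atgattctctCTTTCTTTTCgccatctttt
RPL34 (chr4:108620566-108620595, plus strand): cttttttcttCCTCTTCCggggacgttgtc
RPS4X (chrX:72277229-72277258, minus strand): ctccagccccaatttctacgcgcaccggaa
RPL36A (chrX:101391001-101391030, plus strand): ctcgcggtttCTTTCTTTCCgcgccgatag
RPL36AL (chr14:49620607-49620636, minus strand): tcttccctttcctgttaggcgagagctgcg
RPL22 (chr1:6199576-6199605, minus strand): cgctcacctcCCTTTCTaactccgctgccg
RPL22L1 (chr3:170870176-170870205, minus strand): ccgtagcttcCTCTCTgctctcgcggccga
RPS10 (chr6:34426050-34426079, minus strand): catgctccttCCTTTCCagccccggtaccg
RPS27 (chr1:153990752-153990781, plus strand): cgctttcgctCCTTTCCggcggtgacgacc
RPS27L (chr15:63157458-63157487, minus strand): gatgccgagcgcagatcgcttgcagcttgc
RPL26 (chr17:8383174-8383203, minus strand): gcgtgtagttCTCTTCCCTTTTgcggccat
RPL26L1 (chr5:172958719-172958748, plus strand): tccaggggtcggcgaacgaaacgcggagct
RPL24, RPL34 (shown at the first of 2 annotated starts, the second not meeting the definition), RPL36A, RPL22, RPL22L1, RPS10, RPS27 and RPL26 all opened with such a run. RPS4X and 3 of the paralogs shown, RPS27L, RPL26L1 (shown at the first of 2 annotated starts) and RPL36AL, did not. For RPL36AL the run was shorter than the definition required. The letters describe the annotated window and do not show where transcription began in these cells.

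The 4 libraries held 32206655 to 36301574 counts, and 14303 genes passed the filter on low counts. STAU1 stood at 249 and 251 CPM (counts scaled to a common library size) in the Ctrl libraries and at 41.6 and 41.5 CPM in the shSTAU1 libraries, a log2 fold change of -2.59 (SE 0.13, edgeR adjusted p = 0.00103), in the direction of the labels. The labels name the mouse fibroblast line C3H 10T1/2 beside an oral cancer cell type and human cells. All 7 squamous epithelial markers were above 1 CPM, with sums of 7038 to 11222 CPM, against 10.2 to 22.8 CPM for 7 fibroblast markers (COL3A1, LUM and DCN at or near 0), 7.44 to 18.02 CPM for 3 endothelial markers and at most 1.15 CPM for 4 leukocyte markers. Adjusted p-values below come from edgeR's quasi-likelihood test over all tested genes, and a gene is called past 0.05.

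Counts on the ribosomal protein genes took a larger share of the shSTAU1 libraries than of the Ctrl libraries. Over all 85 members the share was 3.86% and 3.55% of all counts in the Ctrl libraries and 4.95% and 4.69% in the shSTAU1 libraries. The groups did not overlap, and the means differed by 1.12 percentage points. An exact two-sided permutation test over the 4 libraries gave p = 0.333, the smallest value that 2 against 2 libraries allow. Large subunit genes held 2.30% and 2.11% in Ctrl and 2.95% and 2.80% in shSTAU1, and small subunit genes held 1.56% and 1.44% in Ctrl and 1.99% and 1.90% in shSTAU1. Within each group, replicate 2 lay below replicate 1 in all of these shares, by less than the gap between the groups. In bulk RNA, a change in the number of cells that make a transcript and a change in the amount per cell cannot be told apart.

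**Figure D1:**
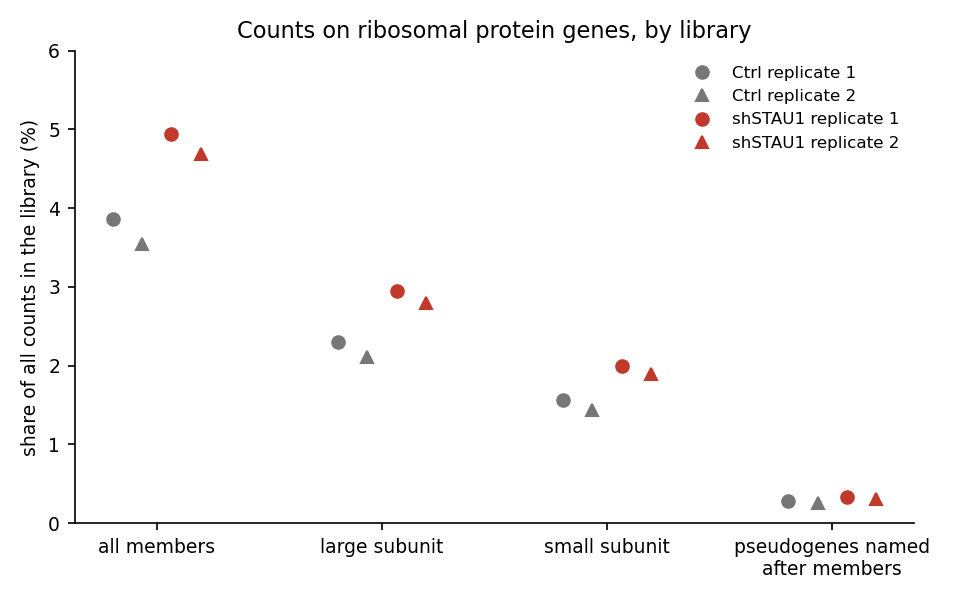
Share of all counts (y axis, %) on all 85 members, on the 53 large and 32 small subunit genes, and on pseudogenes named after them, with 1 point per library. Both shSTAU1 libraries (red) lie above both Ctrl libraries (grey) in each set, at 4.69% to 4.95% against 3.55% to 3.86% for all members.

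Gene by gene, 77 of the 85 members passed the filter, and 73 of these 77 had a log2 fold change above 0, where 50.4% of all tested genes did. The median was 0.43 over the members, with the middle 50% between 0.31 and 0.53, and 0.01 over all tested genes. Both shSTAU1 libraries lay above both Ctrl libraries for 72 of the 77 (background 28.5%) and below both for 3 (background 28%). An unadjusted edgeR p under 0.05 was reached by 58 members on the higher side (background 12.9%) and by 1, RPS10, on the lower side (background 11.6%). After adjustment over all genes, 4 members were called higher (background 1.13%) and 0 lower (background 1.48%). Libraries of the same group differed by less: the median log2 ratio of replicate 2 to replicate 1 over the 77 members was -0.10 in Ctrl, where 71 members were lower in replicate 2, and -0.02 in shSTAU1. Leaving out Ctrl replicate 1 or Ctrl replicate 2 gave a median of 0.48 and 0.37, and the calls did not hold. Leaving out shSTAU1 replicate 1 or shSTAU1 replicate 2 gave a median of 0.41 and 0.44. The sum of the squamous markers moved in the same direction, from 7038 and 7439 CPM in Ctrl to 8585 and 11222 CPM in shSTAU1. Of its 7 markers, 6 had a log2 fold change above 0, with a median of 0.28 over the 7. KRT5 was called higher by 0.65 (adjusted p = 0.0408). KRT14 had 0.89 (adjusted p = 0.112), TP63 0.30, KRT17 0.28, KRT6A 0.14, EPCAM 0.03 and CDH1 -0.29. Both shSTAU1 libraries lay above both Ctrl libraries for 2 of the 7 (background 28.5%). Of the 4 fibroblast markers tested, 3 were below 0. COL1A1 was called lower (log2 fold change -1.35, adjusted p = 0.036). PDGFRA and PDGFRB had -0.85 and -0.38 at no more than 0.67 CPM, and COL1A2 had 1.01 (adjusted p = 0.185). The part of cell composition in the members' values was not tested.

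**Figure D2:**
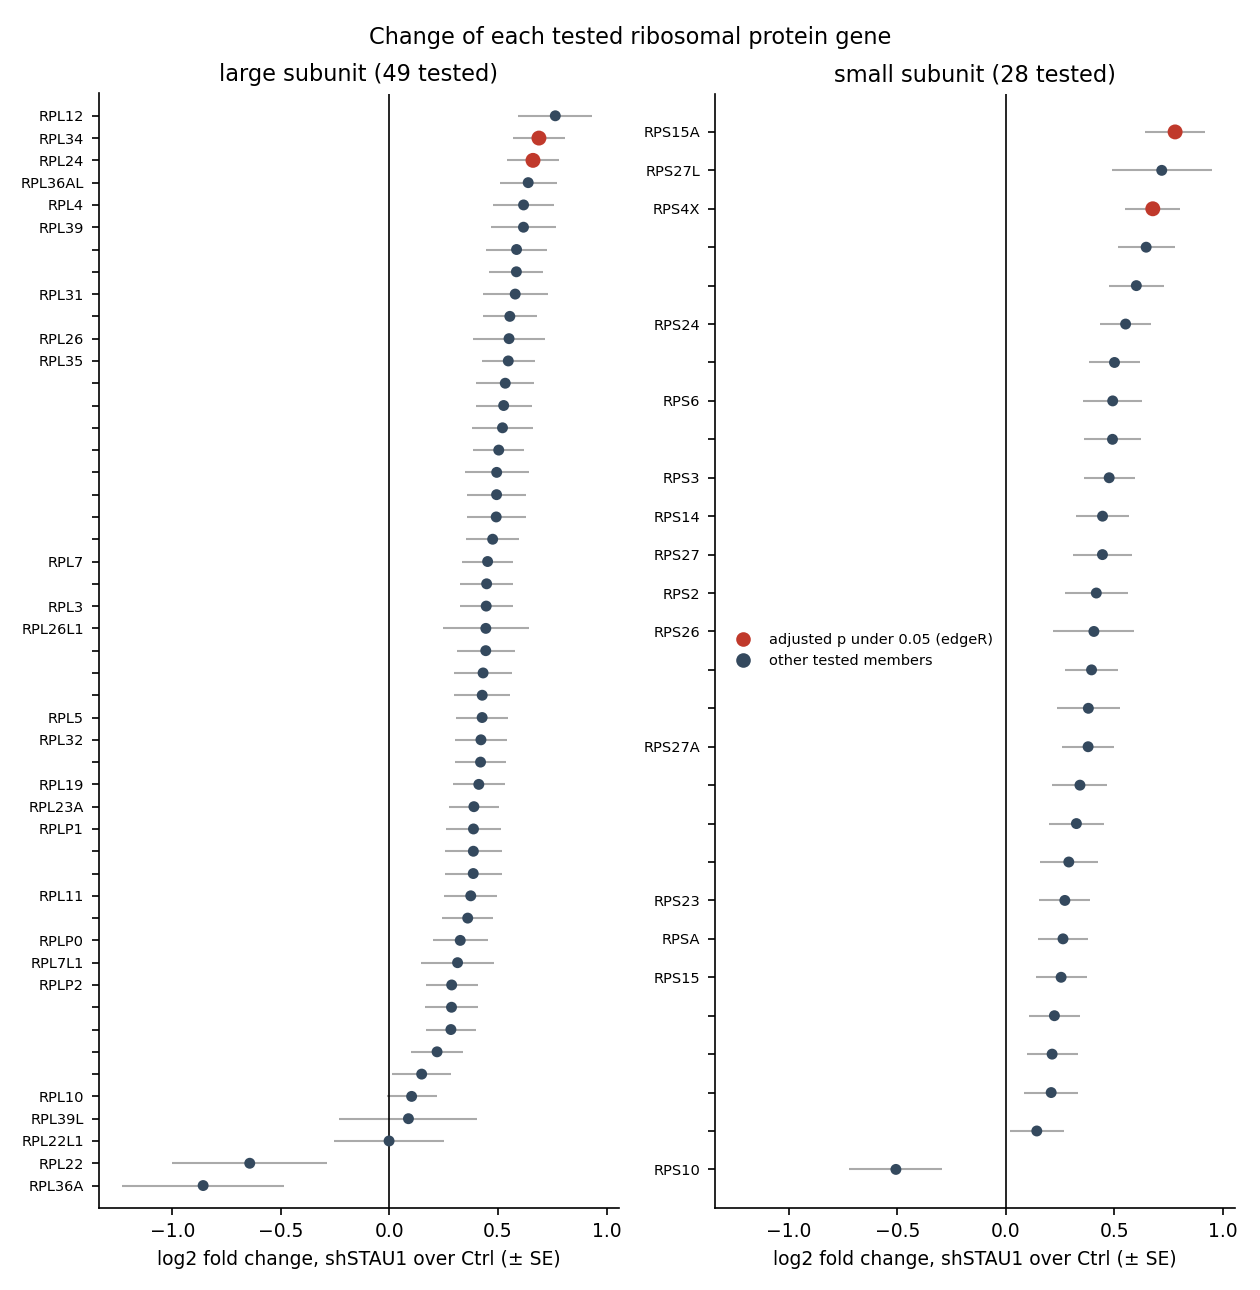
Log2 fold change of shSTAU1 over Ctrl (x axis, bars ± SE) for the 49 large and 28 small subunit genes tested, with called genes in red and the genes of the naming rule labelled. All but RPL36A, RPL22, RPS10 and RPL22L1 lie above 0, most of them between 0.2 and 0.7.

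The 4 called members encode 2 proteins of each subunit. RPS15A (ENSG00000134419.15, chr16:18781295-18790383 (minus strand)), a small subunit protein whose gene is mutated in some families with Diamond-Blackfan anaemia, stood at 39.3 and 36.9 CPM in Ctrl and 66.6 and 64.3 CPM in shSTAU1. It had the largest positive log2 fold change of the 77, 0.78 (SE 0.14, adjusted p = 0.0364), and the groups were 1.72-fold apart. RPL34 (ENSG00000109475.16, chr4:108620566-108630412 (plus strand)), a large subunit protein, stood at 156 and 146 CPM in Ctrl and 242 and 244 CPM in shSTAU1. Its log2 fold change was 0.69 (SE 0.12, adjusted p = 0.0364). RPS4X (ENSG00000198034.11, chrX:72255679-72277300 (minus strand)), the X-linked gene for a small subunit protein, rose from 1369.5 and 1291 CPM to 2266 and 1988 CPM, by 0.68 (SE 0.13, adjusted p = 0.0405). RPL24 (ENSG00000114391.13, chr3:101681091-101686782 (minus strand)), which takes part in a bridge between the subunits, rose from 247 and 236 CPM to 376 and 389 CPM, by 0.66 (SE 0.12, adjusted p = 0.0375). In all 4 genes the lowest shSTAU1 library was above the highest Ctrl library, as in 72 of the 77 tested members. The 4 were picked by a test on these same libraries, so this is no further support for them. Per kilobase of transcript, RPS4X stood at 1133 CPM and RPS15A at 56.8 CPM over all libraries.

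RPL12 and RPS27L had fold changes of the same size without passing the edgeR test. RPL12, a protein at the base of the ribosomal stalk, stood at 331 and 268 CPM in Ctrl and 575 and 443 CPM in shSTAU1 (log2 fold change 0.76, SE 0.17, adjusted p = 0.06). Its libraries differed more within a group than those of the called genes. RPS27L, the paralog of RPS27 and a known p53 target, stood at 7.17 and 5.50 CPM in Ctrl and 10.6 and 10.2 CPM in shSTAU1 (log2 fold change 0.72, SE 0.23, adjusted p = 0.115).

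The 3 members with clearly negative values were RPL36A, RPL22 and RPS10, none of which passed the test, and all 3 carried few reads. RPL36A (chrX:101390824-101396154 (plus strand)), a large subunit protein, had read counts of 86 and 67 in Ctrl against 43 and 46 in shSTAU1. Its log2 fold change was -0.86 (SE 0.37, adjusted p = 0.208). RPL22 (chr1:6185020-6209389 (minus strand)), a protein near the exit tunnel, had 91 and 114 counts in Ctrl and 56 and 83 in shSTAU1, a log2 fold change of -0.64 (SE 0.36, adjusted p = 0.306). RPS10 (chr6:34417454-34426125 (minus strand)), a small subunit protein, had 311 and 311 counts in Ctrl and 218 and 245 in shSTAU1, a log2 fold change of -0.51 (SE 0.21, adjusted p = 0.199). Both shSTAU1 libraries lay below both Ctrl libraries for all 3, as they did for 28% of all tested genes. The annotation places 39.4% of the exon bases of RPS10 also in the readthrough gene RPS10-NUDT3, and reads from these bases cannot be told apart by position.

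Reads assigned to pseudogenes bear directly on RPL36A and RPL22. When the counts of all pseudogenes named after a member were added to it, pseudogenes held 97.8% of the sum for RPL36A and 87.5% for RPL22. With them RPL36A stood at 77.8 and 67.7 CPM in Ctrl and 98.0 and 82.3 CPM in shSTAU1, and its log2 fold change turned to 0.31 (adjusted p = 0.25). RPL22 stood at 18.9 and 18.1 CPM in Ctrl and 22.1 and 21.5 CPM in shSTAU1, and its log2 fold change turned to 0.24 (adjusted p = 0.406). Both sums were higher in both shSTAU1 libraries. RPL36A and RPL22 were the 2 members to change sign among the 77 tested both ways, and 4 members moved by more than 0.1. RPS10, with 31.97% of the sum on pseudogenes, remained negative at -0.39. For 50 of the 77, pseudogenes held under 5% of the sum, and the median was 1.85%. The pseudogenes held 0.276% and 0.255% of all counts in Ctrl and 0.338% and 0.313% in shSTAU1. Among the 228 pseudogenes that passed the filter, 117 (51.3%) were above 0 (background 50.4%), with a median of 0.02. Of them 1 was called higher (background 1.13%) and 1 lower (background 1.48%). Whether a read on a pseudogene came from it or from its parent gene cannot be told apart in these counts.

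**Figure D3:**
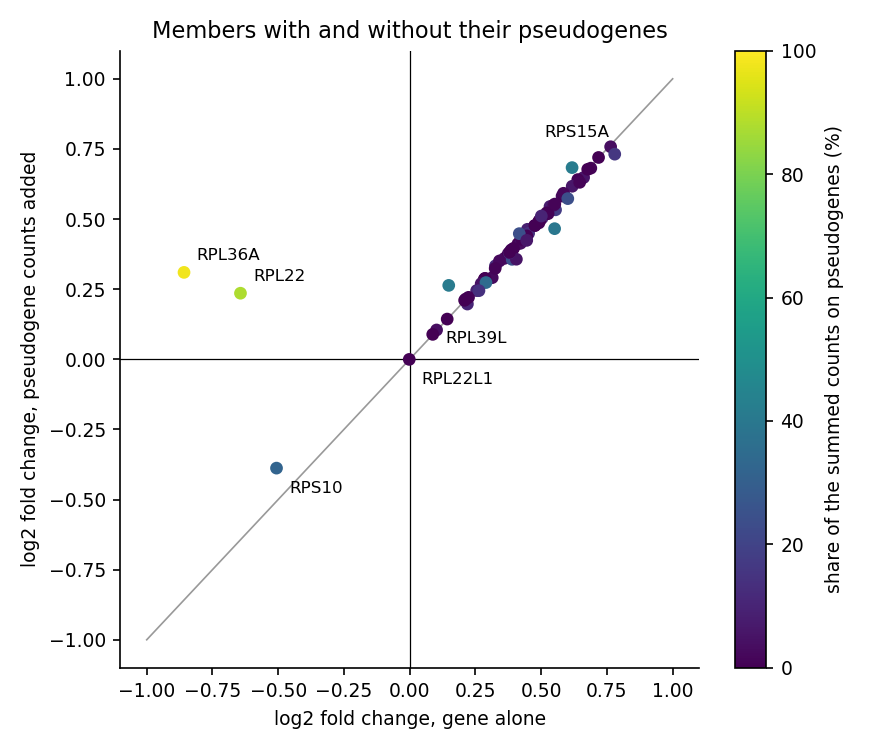
Log2 fold change of each tested member from its own counts (x axis) and with the counts of its pseudogenes added (y axis), coloured by the share of the sum on pseudogenes (%). Most points lie on the diagonal, and RPL36A and RPL22 move from -0.86 and -0.64 to 0.31 and 0.24.

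Both subunits gave similar values. The median log2 fold change was 0.44 over the 49 large subunit genes tested, 46 of them above 0 and 2 called higher, and 0.40 over the 28 small subunit genes tested, 27 of them above 0 and 2 called higher. The log2 ratio of large to small subunit counts was 0.56 and 0.55 in Ctrl and 0.57 and 0.56 in shSTAU1. The groups overlapped, and the difference of 0.00863 was about as large as the SD of 0.0071 in Ctrl (exact permutation p = 0.667, two-sided).

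By place and task in the ribosome, the members are given as values, and no difference between roles was tested. The 3 proteins of the P stalk, which recruits elongation factors, had log2 fold changes of 0.29 (RPLP2), 0.33 (RPLP0) and 0.39 (RPLP1). RPL5 and RPL11, which bind 5S rRNA and, when free, the p53 regulator MDM2, had 0.43 and 0.37. RPL5 stood at 1481 and 1324 CPM in Ctrl and 1889 and 1882 CPM in shSTAU1. Of the 9 genes listed for the exit tunnel, through which the new chain leaves, 8 were tested and 7 were above 0, with a median of 0.55, RPL22 at -0.64 being the exception. RPL4, which lines the tunnel, and RPL39, a very short protein inside it, both had 0.62, and RPL31 and RPL35 at its rim had 0.58 and 0.55. None of these passed the adjusted threshold. The 6 genes listed for the mRNA channel and the decoding site (RPS2, RPS3, RPS14, RPS15, RPS23 and RPS26) were all above 0, from 0.25 (RPS15) to 0.48 (RPS3). RPS27A, made as a fusion with ubiquitin, had 0.38. RPS6, the S6 kinase substrate, had 0.49, and RPSA, which also names a laminin receptor, had 0.26. Of the 18 tested genes of Diamond-Blackfan anaemia, an inherited failure of red cell production, 17 were above 0 with a median of 0.47, and RPS15A was called.

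Members differed far more in level than in change. Per kilobase of transcript, the 5 highest tested members over all libraries were RPS24 (3842 CPM per kilobase), RPL32 (2457), RPL23A (2386), RPS27A (2222) and RPSA (1943). RPS24, a small subunit protein, stood at 1875 and 1758 CPM in Ctrl and 2631 and 2695 CPM in shSTAU1 (log2 fold change 0.55, SE 0.12, adjusted p = 0.0543). The 5 lowest tested were RPL36A (2.58 CPM per kilobase), RPL22 (3.66), RPL39L (5.40), RPS27L (10.4) and RPS10 (12.1). RPL36A, RPL22 and RPS10 among these are the genes with clearly negative values. Pseudogenes held 97.8%, 87.5% and 31.97% of their summed counts, so their low levels also depend on where reads were assigned. The correlations below include these genes. The kit captures exons with probes, so the order of levels also depends on the probes. The 10 members with most counts held 36.6% and 36.8% of the members' counts in Ctrl and 37.2% and 37.5% in shSTAU1. Over the 77 members, the rank correlation of the log2 fold change with CPM per kilobase was 0.04 (Pearson's r 0.47 with the log2 level), with transcript length 0.06 and with GC content -0.28, as a description over genes that share the same libraries. Members are short, with a median annotated length of 683 bases against 1662 bases for all tested genes, and after each library was corrected for its trend with length and GC content their median was 0.41, against 0.05 for all genes.

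Paralogs were set against their canonical genes as a ratio within each library, which cancels the scaling. In 6 of 8 pairs both genes passed the filter. RPL36AL stood at 67.8 and 61.0 CPM in Ctrl and 101 and 99.8 CPM in shSTAU1 (log2 fold change 0.64, adjusted p = 0.0515). It made up 96.4% and 96.8% of the counts of the pair with RPL36A in Ctrl and 98.8% and 98.7% in shSTAU1, and the log2 ratio of the pair was 4.72 and 4.89 in Ctrl and 6.34 and 6.24 in shSTAU1, a difference in means of 1.49. The groups did not overlap. With its pseudogene counts added, RPL36A stood at 77.8 and 67.7 CPM in Ctrl and 98.0 and 82.3 CPM in shSTAU1, near the level of RPL36AL. The difference in the log2 ratio was then 0.33. The share of the pair thus depends on where reads were assigned.

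RPL22L1, whose protein can take the place of RPL22, stood at 52.2 and 46.3 CPM in Ctrl and 35.5 and 62.9 CPM in shSTAU1. The shSTAU1 libraries lay on either side of the Ctrl libraries. It made up 95.1% and 93.0% of the pair in Ctrl and 95.7% and 96.4% in shSTAU1, a difference in log2 fold change of 0.64 (SE 0.44). With its pseudogene counts added, RPL22 stood at 18.9 and 18.1 CPM in Ctrl and 22.1 and 21.5 CPM in shSTAU1, so this share also depends on read assignment. The difference in the log2 ratio of counts was 0.60 from the genes' own counts and -0.29 with the pseudogene counts added. RPS27L exceeded RPS27 in change by 0.27 (SE 0.27), and held 4.19% and 3.65% of the pair in Ctrl and 4.52% and 4.95% in shSTAU1.

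RPL39L, known for its high level in testis, stood at 4.52 and 3.33 CPM in Ctrl and 3.42 and 4.92 CPM in shSTAU1, where RPL39 had 33.7 and 30.4 CPM and 51.6 and 46.7 CPM. The difference between the 2 was -0.53 (SE 0.35). RPL7L1 and RPL26L1 stayed within -0.14 (SE 0.21) and -0.11 (SE 0.26) of RPL7 and RPL26. RPL26L1 held 48.2% and 50.05% of its pair in Ctrl and 42.5% and 51.7% in shSTAU1, about as many counts as RPL26 from its own entry. With its pseudogene counts added, RPL26 stood at 28.8 and 25.7 CPM in Ctrl and 38.2 and 36.9 CPM in shSTAU1. RPL26L1, with no pseudogenes named after it, stood lower, at 14.8 and 15.9 CPM in Ctrl and 18.1 and 23.7 CPM in shSTAU1. The exact two-sided permutation p of the ratio was 0.333 in 4 pairs and 1 in the pairs of RPL7L1 and RPL26L1, at least 0.5 after adjustment over the 6 pairs. The test cannot go below 0.333 with these libraries. RPL10L was listed at 0 in all 4 libraries and RPL3L, a muscle gene, had at most 5 counts.

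**Figure D4:**
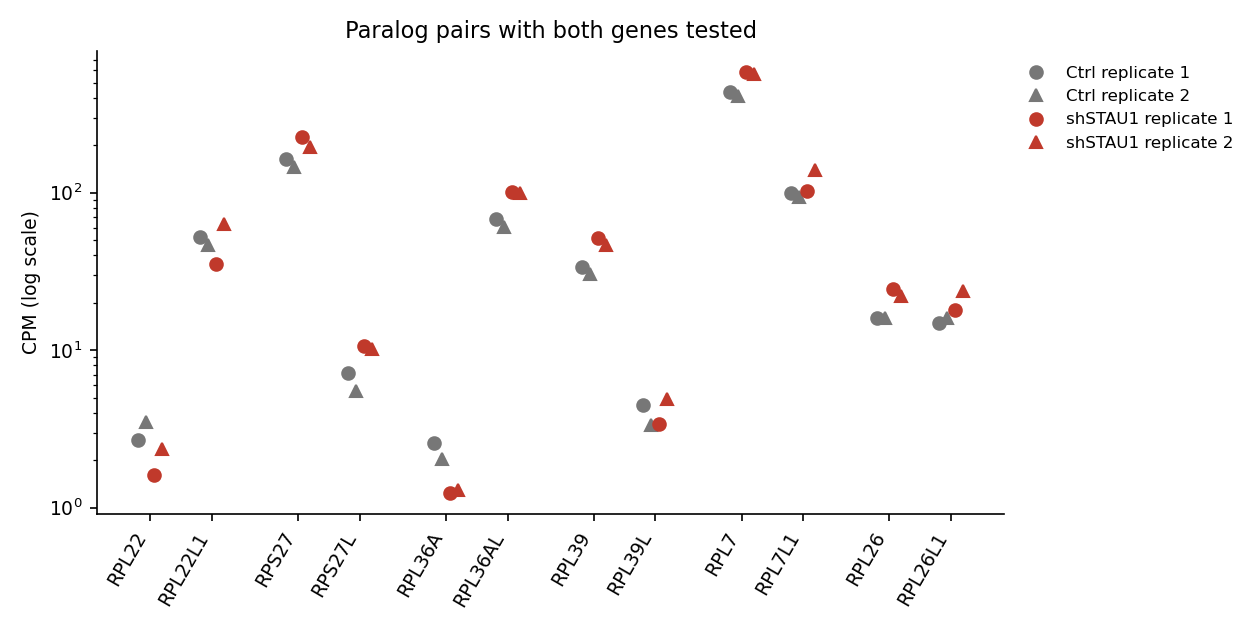
CPM (log scale) from each gene's own counts, without pseudogenes, in the 6 pairs with both genes tested, with 1 point per library. RPL36AL is higher and RPL36A lower in both shSTAU1 libraries (red), and for RPL22L1 and RPL39L the groups overlap.

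The remaining members had too few counts to be tested. RPL7A, RPS9, RPS18 and RPS25, genes that every cell uses, were listed at 0 in all 4 libraries, as was the testis gene RPL10L, and RPL3L is described above. RPL17 had 20 and 6 counts in Ctrl and 10 and 6 in shSTAU1, and shares exons with the readthrough gene RPL17-C18orf32. No lack of expression can be read from these entries. Counts on pseudogenes named after RPL17 and RPS18 were present. With them RPL17 stood at 55.0 and 49.3 CPM in Ctrl and 85.2 and 78.8 CPM in shSTAU1 (log2 fold change 0.65, adjusted p = 0.0548), and RPS18 at 22.4 and 21.4 CPM in Ctrl and 32.6 and 27.2 CPM in shSTAU1 (0.45, adjusted p = 0.154). Neither passed the threshold. Both shSTAU1 libraries lay above both Ctrl libraries for each of them, as they did for 28.5% of all tested genes. RPL7A had a log2 fold change of 0.26 with its pseudogenes, and RPS25 had -0.80 at no more than 0.416 CPM, neither of them called. Pseudogenes held 99.5% of the sum for RPL17 and 100% for RPS18, RPL7A and RPS25, so the values of these genes are those of reads on pseudogenes. With these genes included, 78 of 81 members tested in this way were above 0.

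The other parts of the translation machinery mostly showed values above 0, of varying size. Of the other ribosome components, FAU, made as a fusion with a ubiquitin-like protein, had a log2 fold change of 0.25, and RACK1, a scaffold on the small subunit, had 0.54, neither of them called. Of 22 further genes known for TOP mRNAs, mostly translation factors, 19 were tested and 17 were above 0, with a median of 0.43. EIF3E, a subunit of initiation factor eIF3, rose from 741 and 679 CPM to 1137 and 1077 CPM, by 0.64 (SE 0.12, adjusted p = 0.0424). VIM, the intermediate filament gene vimentin, was called lower, from 45.9 and 46.9 CPM to 11.7 and 22.5 CPM (log2 fold change -1.44, SE 0.28, adjusted p = 0.0467). The other gene of that list below 0 was EEF1D, at no more than 1.62 CPM in any library, and EEF1B2, EEF1G and EIF3K were listed at 0. The genes that act on TOP mRNAs, such as mTOR, LARP1 and the S6 kinases, had a smaller median of 0.13 (12 of 16 above 0, 0 called). Over all tested genes, 50.4% were above 0, 1.13% were called higher and 1.48% lower.

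Factors that build ribosomes also lay mostly above 0. The median was 0.28 over the 30 tested 40S assembly factors (28 above 0), 0.25 over the 32 tested 60S assembly factors (27 above 0), 0.27 over the 8 ribosomal protein chaperones (6 above 0) and 0.14 over the 12 tested RNA polymerase I genes (9 above 0), and 0 genes of these 4 lists were called. The proteins of the snoRNA complexes that modify rRNA had a median of 0.43 (8 of 9 above 0). Of them NOP10, a core protein of H/ACA complexes, rose from 52.6 and 55.0 CPM to 86.8 and 87.1 CPM, by 0.69 (SE 0.13, adjusted p = 0.0405). These lists are described by their counts beside the shares over all tested genes. Those shares were 50.4% above 0, 1.13% called higher and 1.48% called lower. In lists this short, few or no calls are no result about the list, and no difference between lists was tested.

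**Figure D5:**
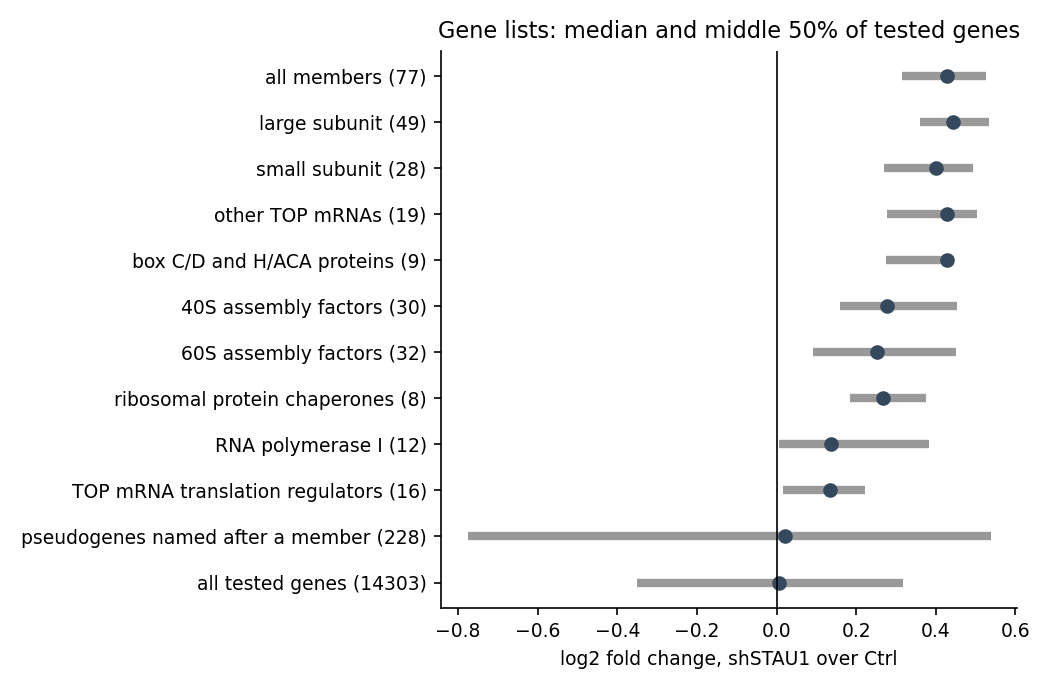
Median log2 fold change (points) and middle 50% (bars) of shSTAU1 over Ctrl for the tested genes of each list, with the number tested in brackets. The members, the other TOP mRNAs and the snoRNA complex proteins have medians of 0.43, and all tested genes have 0.01.

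Members with and without a TOP start had similar medians, with the groups set by the exact annotated start. Allowing 5 bases to either side, 51 of the 68 members with an entry had such a run, against 21.1% of other protein-coding genes. No median was taken with this wider definition. The 43 tested members with a TOP start had a median log2 fold change of 0.44 (39 above 0), and the 19 tested members with an entry but without such a start had 0.45 (all 19 above 0). RPL36A, RPL22, RPS10 and RPL22L1, the members below 0, all have one in the windows printed above. Among other tested genes the medians were 0.10 for the 673 with a TOP start and 0.03 for the 9012 without.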

How the data were processed

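RNA was extracted with Trizol and libraries were made with the TruSeq RNA Exome kit, per the labels. The authors deposited raw counts per Ensembl gene, whole numbers without normalization. The submitters' processing notes name Partek and hg38, and the aligner, the annotation and the use of strand are not given in the sources used here. Symbols, positions and lengths came from GENCODE 29, which held 58516 of the 67008 identifiers (99.9% of counts).

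Within a group, replicate counts differed beyond sampling noise (chi-square over its degrees of freedom 25.4 in Ctrl and 61.6 in shSTAU1). Genes were filtered with filterByExpr (minimum count 10) and scaled by TMM (factors 0.974 to 1.02), and shSTAU1 was compared with Ctrl in edgeR 4.0.16 (R 4.3.3) by its quasi-likelihood test, with p-values adjusted by Benjamini-Hochberg over all 14303 tested genes (threshold 0.05). CPM were TMM-scaled. SEs were the log2 fold change divided by the root of the F statistic, and the SE of a paralog difference treated the 2 genes as independent. Paralog ratios used counts plus 0.5. Pseudogenes were those named after a member (1605 in the table). limma 3.58.1, DESeq2 1.42.0 and the other alternatives are in the closing section. The scripts were tested on simulated data.

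Named were all called members and the 5 largest and smallest fold changes and levels per length. Paralog pairs, role lists and called genes of the other lists were also named. RPL17, RPS18, EEF1D, FAU and RACK1 were chosen after their values were seen, as were the uncalled squamous and fibroblast markers. EEF1B2, EEF1G and EIF3K were named for being at 0. The members and lists were chosen with earlier results of these data known. Start sites were RefSeq entries, and RPL5, RPL7, RPL8, RPL23, RPL23A, RPL30, RPL37, RPL39L, RPL3L, RPS2, RPS15A and RPS20 were among the members with none. Some single genes are not reported here. With 2 libraries a group, precision was limited by their number and spread (common biological coefficient of variation 19.1%).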

Additional observations from a re-analysis of the deposited data

How the results depend on the processing

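The direction of the members' median held in every alternative run, from 0.37 to 0.48, and the number of called members did not. The edgeR fit of the report called 4 members among 372 genes. DESeq2 called 35 of 1449, no filter on low counts 0 of 11, an adjusted p under 0.10 gave 37 of 1585, while at least 1.5-fold at an unadjusted p under 0.05 gave 12 of 2098. Library size scaling called 3 of 404, with a median of 0.38, limma-voom 6 of 363 and the length and GC correction 6 of 436. Leaving out 1 library at a time gave 0 to 45 called members, 0 to 2780 called genes and a median of 0.37 to 0.48, the lone sample of a group being assumed to vary like the other group. All 4 calls were lost without Ctrl replicate 1, without Ctrl replicate 2 and with no filter, and RPS4X with library size scaling. With no filter, 24804 genes were tested. The replicate number as a block gave 63 called members of 4087 called genes, or 60 of 3987 together with the correction. The labels do not say what the number marks, and same-numbered libraries deviated together with a correlation of 0.27 over all tested genes, 0.59 over the 4830 above a log2 CPM of 5 and 0.32 over the 77 members. Added pseudogene counts reversed RPL36A (0.31), RPL22 (0.24) and the ratio of RPL22L1 to RPL22 (-0.29). RPL22L1, near 0, turned to 0.0014 when the scaling left out the members and to 0.019 after the length and GC correction. It ranged from -0.48 to 0.36 with 1 library left out. RPL39L ranged from -0.21 to 0.34. The log2 ratios of RPL7L1 to RPL7 and RPL26L1 to RPL26 ranged from -0.40 to 0.087 and from -0.38 to 0.15, positive without shSTAU1 replicate 1. The causes were not tested. VIM lost its call with no filter and with the length and GC correction, EIF3E and KRT5 with no filter and library size scaling, and NOP10 and COL1A1 with no filter. RPL12 and RPS27L were called with the block, and RPL12 also with DESeq2. Low counts limit RPL36A and RPL22 (43 to 114 counts a library) more than RPS10 (218 to 311).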
